A study of Mus musculus with 16 samples.

Results

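Described here are the transcripts of cytoplasmic actin and of 8 abundant proteins that bind it, in RNA sequencing of neutrophils sorted from mouse bone. The 10 genes were given by name and matched by Ensembl identifier. They are the actins Actb and Actg1, the monomer-binding proteins Pfn1 and Tmsb4x, the filament-binding proteins Cfl1, Coro1a and Cotl1, the barbed-end capping proteins Capg and Gsn, and the bundling protein Lcp1. All 10 were present among the 49585 gene identifiers of both count tables. The mice were of strain C57BL/6 and were 8 to 12 weeks old. In the first line (P2KO), the labels give a deletion of PHD2 (the oxygen sensor, gene Egln1) from floxed alleles with Vav:cre, a recombinase active in blood-forming cells generally and not in neutrophils alone. In the other line (P2H2KO), PHD2 and the hypoxia-inducible factor HIF2, both floxed, were labelled as deleted together with Vav:cre. Each line had its own controls, labelled wild type (P2WT and P2H2WT), and the labels do not say whether these carried the floxed alleles or the recombinase. Each group held 4 libraries. No treatment is given for any group, and the title of the series sets the data in the question of how HIF2 bears on neutrophil movement. Nothing in the labels says that the 4 libraries of a group came from separate mice, so p-values measure the spread between these libraries, which may be technical.

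Actin monomers assemble into filaments that grow at one end, the barbed end, and shrink at the other, and the push of growing filaments against the membrane drives the crawling of neutrophils. Profilin and thymosin β4 hold the pool of free monomers, cofilin and coronin take old filaments apart, capping proteins stop growth at barbed ends, and plastins tie filaments into bundles. Many genes of this machinery are known targets of serum response factor, which is itself regulated by the level of free actin monomers. PHD2 is the enzyme by which cells sense oxygen, since it uses oxygen to tag hypoxia-inducible factors for destruction.

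Between 23450746 and 28601284 reads were counted per library. All 14 neutrophil markers examined were detected in every library, among them the calprotectin gene S100a9 at 7761 to 21366 CPM (counts scaled by library size, in the usual unit) and Ly6g, the usual surface marker of mouse neutrophils, at 84.3 to 269.5 CPM. Markers of other cells were present too. The summed level of 12 erythroid genes, the globins among them, was 25078 to 51018 CPM, and no gene of that list was at 0 in a whole group. The 14 neutrophil markers summed to 32906 to 84034 CPM. The erythroid sum was above the neutrophil sum in P2WT replicate 4, P2KO replicates 5 and 9 and P2H2WT replicate 14. It was below the neutrophil sum in all other libraries. The summed level of 8 bone stroma genes was 451 to 1268 CPM in the P2 line and 180 to 310 CPM in the P2H2 line. The targeted transcripts did not follow the genotype labels. Egln1 was at 45.9 to 51.3 CPM in P2WT and 43.2 to 58.4 CPM in P2KO, and at 47.9 to 54.6 CPM in P2H2WT and 49.2 to 58.8 CPM in P2H2KO. Epas1, which encodes the HIF2 α subunit, was at 2.55 to 4.97 CPM in P2H2WT and 3.42 to 8.39 CPM in P2H2KO. In the P2 line Epas1 was at 8.70 to 11.3 CPM in P2WT and 6.76 to 24.4 CPM in P2KO. Both P2H2 groups, the controls included, thus lay below P2WT. These counts cover the whole gene, while a floxed allele loses only some exons, so they cannot show whether the deletion took place. The group names used below, and every direction between genotypes, therefore rest on the labels alone.

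The members lie on 9 chromosomes in mm10, as placed by the GENCODE M21 annotation, and all are protein-coding. Actb spans chr5:142903115-142906754 on the minus strand. Actg1 spans chr11:120345690-120348542 and Pfn1 chr11:70651850-70654644, both on the minus strand. Tmsb4x spans chrX:167207093-167209315 on the minus strand, and Cfl1 spans chr19:5490455-5495201 on the plus strand. Coro1a spans chr7:126699773-126707787 and Cotl1 chr8:119809222-119840544, both on the minus strand. Capg spans chr6:72544391-72562983, Gsn chr2:35256380-35307892 and Lcp1 chr14:75131101-75230842, all on the plus strand. Cfl1 shares 468 exonic bases with Snx32, and Coro1a 26 bases with Bola2, on the opposite strand. Lcp1 overlaps 2 genes of the opposite strand, and Actg1 overlaps the small RNA genes Gm23419 and Mir6935 on its own strand. Whether counting used the strand is not given in the sources used here.

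Stretches before the RefSeq start of 3 members are shown because these members carry the differences in pattern described below (Actg1 and Gsn) or, for Lcp1, as another member with ACGTG, one form of the core letters of a hypoxia response element. They come from RefSeq on GRCm38.p6 and end before the GENCODE gene or the RefSeq start, whichever comes first. Capitals mark matches to the CArG box, the motif of serum response factor, and to ACGTG on either strand. The stretch of Actg1 is chr11:120348543-120348745 on the minus strand.
Actg1: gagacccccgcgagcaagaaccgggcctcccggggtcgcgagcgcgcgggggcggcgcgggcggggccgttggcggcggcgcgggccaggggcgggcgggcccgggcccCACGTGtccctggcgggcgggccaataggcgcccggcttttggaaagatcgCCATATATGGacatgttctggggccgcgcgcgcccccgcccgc
The stretch of Lcp1 is chr14:75130873-75131100 on the plus strand.
Lcp1: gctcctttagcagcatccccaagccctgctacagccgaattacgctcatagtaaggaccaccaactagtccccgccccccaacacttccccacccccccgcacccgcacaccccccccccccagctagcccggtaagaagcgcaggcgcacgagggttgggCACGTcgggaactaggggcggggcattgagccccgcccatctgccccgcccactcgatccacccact
The stretch of Gsn is chr2:35256109-35256358 on the plus strand and holds neither motif.
Gsn: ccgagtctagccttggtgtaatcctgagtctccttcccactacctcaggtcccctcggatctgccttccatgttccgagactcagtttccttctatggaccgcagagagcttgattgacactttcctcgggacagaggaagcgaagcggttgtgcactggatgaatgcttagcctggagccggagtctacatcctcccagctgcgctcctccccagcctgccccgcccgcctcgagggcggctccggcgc

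The search covered both strands of windows from 250 bases before to 50 bases after each RefSeq start, and 8 of the 10 members had such a window, so that Actb and Cotl1 were not searched. The CArG box was found in 1.63% of 32851 windows and, among the 8 members searched, in Actg1 alone, where it lies 90 to 81 bases before the start. ACGTG was found in 19.6% of windows and in the members Actg1 and Lcp1. In Actg1 its matches on the 2 strands overlap, which is why 6 letters are in capitals there. GCGTG, the other form of the hypoxia response core, was found in 32.4% of windows and in Cfl1, Gsn, Pfn1 and Tmsb4x, in Gsn across the start itself and so outside the stretch shown. AGGAAGT, a motif bound by the myeloid factor PU.1 and its relatives, was found in 9.35% of windows and in Gsn and Pfn1. A match is a description of letters, and no factor binding was measured.

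Near-identical copies took few of the counts. Annotated pseudogenes with at least 95% identity over at least 200 bases were found for Actg1 (6, of which 5 are in the tables) and for Cfl1 (1, Gm6180). The 5 in the tables held 0.522% as many counts as Actg1, the most in Gm8399 with 20 to 46 counts per library. How reads that fit several places were assigned is not given in the sources used here.

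By mean CPM the members spread widely among all genes, with Lcp1 at rank 31, Gsn at 308, Actg1 at 367 and Capg at 904. Together they took 1.38% of all counts in the lowest library (P2KO replicate 9) and 2.18% in the highest (P2H2KO replicate 17). Actb ranked seventh of all genes, at 7342 CPM ± 1265 (SD, n = 16 libraries). Levels between genes are compared per kilobase of exon, taken as the union of all annotated exons of a gene. That union is 9504 bases for Lcp1 and 1371 to 3157 bases for the other members. The order below therefore depends on the annotated isoforms, and which of them were expressed was not tested. On that scale Actb was highest at 2740 ± 472 CPM per kilobase, followed by Tmsb4x at 2246 ± 454, and Actb was above Tmsb4x in 16 of 16 libraries although their ranges overlapped. Coro1a (535 ± 103), Cotl1 (478 ± 111), Pfn1 (471 ± 71.3) and Cfl1 (393 ± 40.2) formed the next step, at CPM per kilobase with SD over 16 libraries. Cotl1 was above Pfn1 in only 8 of 16 libraries, so those neighbours do not differ beyond their spread. Lcp1 (198 ± 47.2), Actg1 (146 ± 31.4), Gsn (135 ± 34.2) and Capg (84.7 ± 22.8) were lowest in CPM per kilobase. Actg1 was above Gsn in 9 of 16 libraries, again within the spread.

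Actb, which encodes β-actin, was at 6607, 6244, 6619 and 7951 CPM in P2WT (replicates 3, 4, 7 and 10) and at 6500, 5969, 9703 and 5421 CPM in P2KO (replicates 1, 5, 6 and 9). P2KO thus held both the highest and the lowest of the 16 libraries. In P2H2WT Actb was at 7245, 6720, 7523 and 9019 CPM (replicates 13, 14, 16 and 18), and in P2H2KO at 6835, 7010, 8884 and 9220 CPM (replicates 11, 12, 15 and 17). All 4 groups overlapped. Actg1, which encodes the almost identical γ-actin, was at 334, 318, 400.5 and 435 CPM in P2WT and at 321, 263, 481 and 271 CPM in P2KO, in the same order of replicates. In the P2H2 line Actg1 was at 380.04, 331, 448 and 468 CPM in the controls and at 358, 341, 528 and 515 CPM in P2H2KO. For Actg1 too the groups overlapped in both lines.

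Transcripts of the 2 proteins that hold free monomers differed in level. Tmsb4x, which encodes thymosin β4 and keeps monomers from assembling, was at 2832 ± 291 CPM in P2WT and 2677 ± 670 CPM in P2KO (SD, n = 4 each). Its level was 3338 ± 520 CPM in P2H2WT and 3474 ± 733 CPM in P2H2KO. Pfn1, which encodes profilin and brings monomers to growing ends, was at 1047 ± 103 CPM in P2WT and 1048 ± 213 CPM in P2KO. In the P2H2 line Pfn1 was at 1199 ± 123 CPM in the controls and 1237 ± 190 CPM in P2H2KO.

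Among the filament-binding members, Cfl1 was the steadiest of the 10. Cfl1 encodes cofilin, which severs filaments, and its highest library was 1.35-fold its lowest, from 969 to 1311 CPM. Coro1a, the coronin of white blood cells, ranged from 1071 to 1944 CPM. Cotl1, which encodes a coactosin-like filament-binding protein, ranged from 500.5 to 1066 CPM, 2.13-fold. Both were lowest in P2KO replicate 9.

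Capg and Lcp1 had the widest ranges of the 10. Capg, a capping protein of macrophages and neutrophils, was at 128.9 CPM in P2KO replicate 9 and at 307 CPM in P2H2KO replicate 15, a 2.38-fold range that was the widest of the 10. Lcp1, which encodes the plastin of white blood cells, ranged 2.19-fold, from 1264 CPM in P2KO replicate 9 to 2767 CPM in P2KO replicate 6, so its whole range lay within 1 group. Gsn encodes gelsolin, which cuts filaments and caps the new ends when calcium rises. It was at 333, 319, 335 and 470.5 CPM in P2WT and at 403.5, 317, 621 and 349 CPM in P2KO. In the P2H2 line Gsn was at 373, 346, 385 and 489 CPM in the controls and at 451, 415, 572 and 654 CPM in P2H2KO. The Gsn groups overlapped in both lines, in P2H2 through the highest control, replicate 18.

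**Figure D1:**
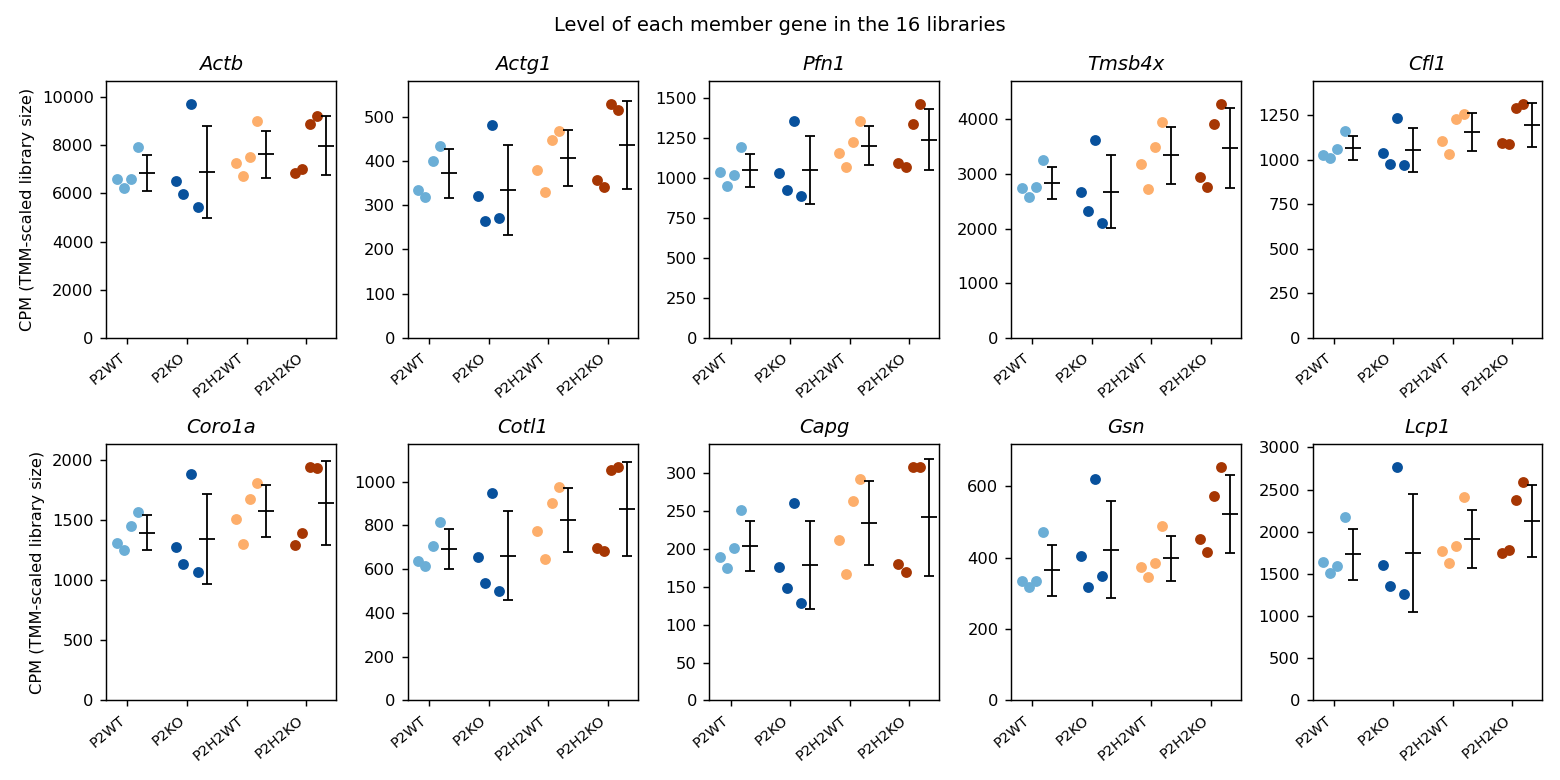
Each panel plots 1 gene, with CPM on TMM-scaled library sizes on the vertical axis from 0 and the 4 groups along the horizontal axis. Points are libraries, and the line with whiskers is the mean and SD of the 4; in P2KO, replicate 6 stands highest for every gene, as Actb shows (9703 CPM against 5421 to 6500 in the other 3).

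None of the 10 genes differed between genotypes in either line at the threshold of an adjusted p of 0.05. In P2KO against P2WT, 0 of 10 were called, where 0.0437% of the 13734 genes tested were (6 genes), and 0 of 10 had an unadjusted p under 0.05, where 3.49% of all genes did. Log2 fold changes ran from -0.18 (Capg, SE 0.22) to 0.23 (Gsn, SE 0.22), with a median of -0.024 against 0.020 over all genes tested. Actb was at 0.022 (SE 0.20), with a 95% confidence interval of -0.43 to 0.47. Cfl1 had the tightest interval, -0.25 to 0.24 around a log2 fold change of -0.0046. P2KO replicate 6 weighed on these values: without it Actb was at -0.19 and Gsn at -0.019. No member had all libraries of one group above all of the other, while 0.859% of genes tested were higher without overlap and 1.39% were lower.

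In P2H2KO against P2H2WT, 0 of 10 members were called, where 0.0744% of the 13435 genes tested were (10 genes). All 10 log2 fold changes were above 0, from 0.045 (Pfn1, SE 0.13) to 0.39 (Gsn, SE 0.16), with a median of 0.063 against 0.0011 over all genes. The 10 vary together across libraries, so these signs are not independent of each other. With the title suffix, the late granule level or the erythroid level in the model, 7, 8 and 8 of the 10 signs turned. Gsn had an unadjusted p of 0.0367 and an adjusted p above 0.99 (edgeR quasi-likelihood test, Benjamini-Hochberg), and 2.63% of all genes had an unadjusted p under 0.05. No member was without overlap, where 0.901% of genes tested were higher and 0.811% lower without overlap.

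The difference between the lines in their genotype effect was tested directly in a fit of all 16 libraries. It was called for 0 of 10 members and for 0.0% of the 14080 genes tested, and 1.51% of all genes but 0 of 10 members had an unadjusted p under 0.05 (DESeq2 called 0 genes too). The P2 effect was the lower for each of the 10, by log2 values from -0.044 (Pfn1, SE 0.20) to -0.25 (Actg1, SE 0.28), and every 95% interval included 0. That direction did not hold with a covariate, since 8 of 10 members were above 0 with the late granule level and 7 of 10 with the erythroid level. The average of the 2 effects was called for 0 of 10 members, where 0.17% of genes were called, and 0 of 10 had an unadjusted p under 0.05, where 3.72% of genes did. That average was 0.30 for Gsn (SE 0.15, unadjusted p = 0.0549 in edgeR), and between -0.073 and 0.084 for the other 9.

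**Figure D2:**
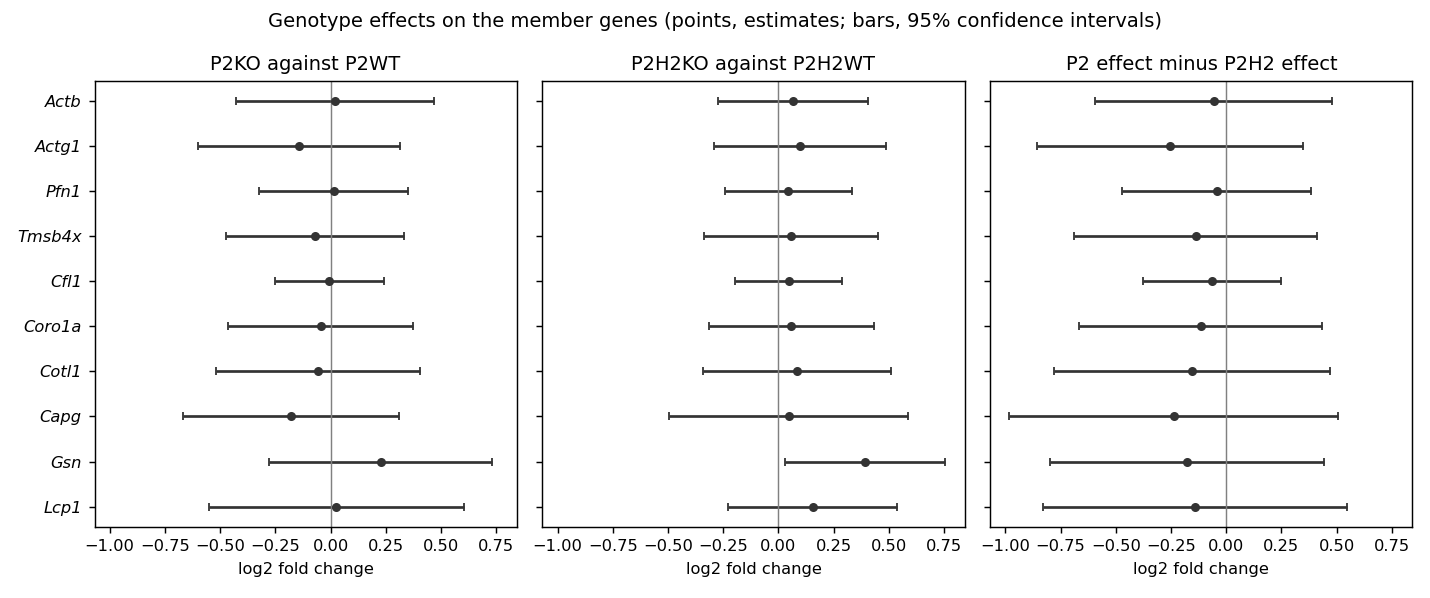
Points are log2 fold changes of the 10 genes in P2KO against P2WT, in P2H2KO against P2H2WT, and the first minus the second, and bars are 95% confidence intervals. All intervals but that of Gsn in the P2H2 line (0.030 to 0.76, adjusted p above 0.99) include 0.

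Dividing by Actb within each library does not depend on library scaling. It sets aside shared variation only where a gene moves in proportion to Actb. In P2KO replicates 6 and 9, the highest and lowest in Actb, Cfl1 was at 12.7% and 17.9% of Actb counts. Lcp1 was at 28.5% and 23.3%. Gsn relative to Actb was highest in the library highest in Actb in P2WT, P2H2WT and P2H2KO, but not in P2KO. What shared variation remains in the ratios was not tested. Gsn counts were 5.05%, 5.11%, 5.06% and 5.92% of Actb counts in P2WT and 6.21%, 5.32%, 6.40% and 6.44% in P2KO. The first 3 controls lay below all P2KO libraries, and control replicate 10 lay above P2KO replicate 5. In P2H2WT the share was 5.15%, 5.15%, 5.12% and 5.42%, and in P2H2KO 6.60%, 5.92%, 6.43% and 7.09%, with no overlap. Of all genes tested, 0.715% were higher relative to Actb without overlap in P2H2KO, and Gsn was the only member among them. In the P2 line 0 of 9 members were higher relative to Actb without overlap, where 0.422% of genes were. The platelet list, whose cells are rich in gelsolin, summed to 119 to 162 CPM in P2H2KO and 102 to 146 CPM in P2H2WT, and to 102 to 326 CPM in P2KO and 102 to 214 CPM in P2WT. The bone stroma list summed to 180 to 262 CPM in P2H2KO and 181 to 310 CPM in P2H2WT. In the P2 line it summed to 522 to 1101 CPM in P2KO and 451 to 1268 CPM in P2WT. The part of either list in the Gsn values was not tested.

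Actg1 was lower relative to Actb in all 4 libraries labelled P2KO than in any P2WT library, a difference that did not pass after adjustment. Actg1 counts were 5.06%, 5.10%, 6.05% and 5.47% of Actb counts in P2WT and 4.94%, 4.41%, 4.96% and 4.99% in P2KO. Every P2KO library lay below every P2WT library, with a gap of 4.99% to 5.06% between the nearest. The mean log2 ratio differed by -0.17, with p = 0.0286 in the exact permutation test (two-sided), the smallest that 4 against 4 libraries allow. The adjusted permutation p over 3 comparisons was 0.0857, which does not pass. Given the p-values of the other comparisons, even that smallest p could not pass, so the adjusted value cannot decide the question. In the P2H2 line the shares were 5.25%, 4.92%, 5.95% and 5.19% in controls and 5.23%, 4.86%, 5.94% and 5.59% in P2H2KO. These overlapped throughout, with a difference of 0.021 (exact permutation p = 0.943). P2WT and P2H2WT differed by 0.025 (exact permutation p = 0.771). The change in the P2 line minus that in the P2H2 line was -0.19, with an exact permutation p of 0.127 over 4900 relabellings, a test added after the values had been seen. The lines are therefore not shown to differ. Coro1a and Capg were also lower relative to Actb without overlap in P2KO, so 3 of 9 members were, where 0.553% of genes were. These 3 share the denominator and vary together. For Coro1a the separation was close to a tie, with 19.76% in the highest P2KO library and 19.79% in the lowest P2WT library. For Capg these were 2.71% and 2.80%. In the P2H2 line 0 of 9 were lower without overlap, where 0.469% of genes were.

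**Figure D3:**
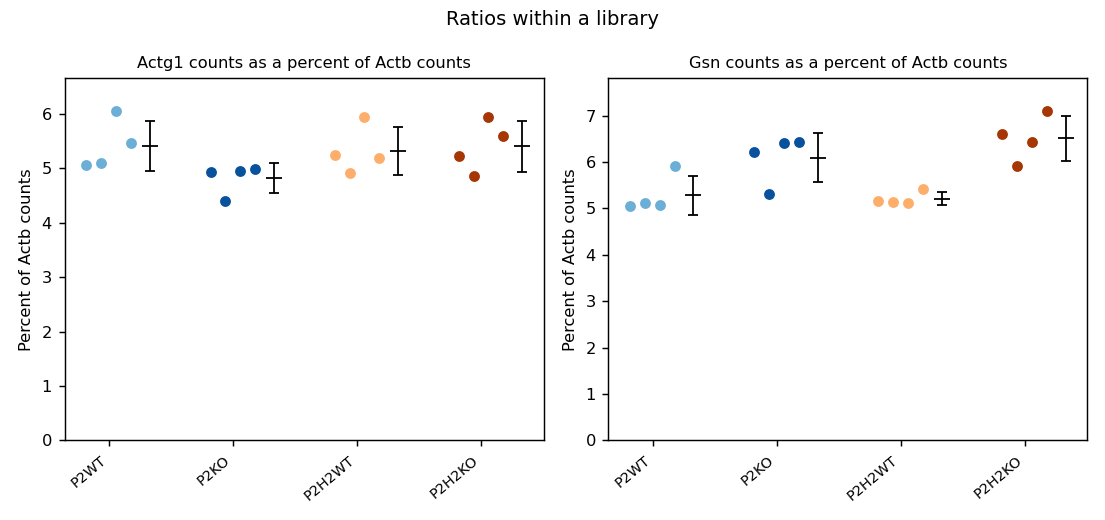
The panels plot Actg1 (left) and Gsn (right) counts as a percent of Actb counts in the same library, from 0, with points for libraries and mean and SD beside them. P2KO lies at 4.41% to 4.99% for Actg1, below P2WT, and P2H2KO lies at 5.92% to 7.09% for Gsn, above P2H2WT.

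The members varied together across the 16 libraries, Gsn less closely than the others. What share of this variation followed genotype was not computed. Over the 45 pairs of members, Pearson's r of log2 CPM across the 16 libraries ran from 0.770 (Capg with Gsn) to 0.993 (Actb with Lcp1), with a median of 0.959. The 36 pairs without Gsn had an r of 0.907 or more, and the 9 pairs with Gsn lay between 0.770 and 0.917. After subtraction of group means the pairs with Gsn lay between 0.911 and 0.975, within 0.911 to 0.995 for all pairs. Within lines, pairs with Gsn lay between 0.748 and 0.919 in P2 and between 0.725 and 0.913 in P2H2. These points share library composition and depth, so the correlations describe these libraries. Leaving out the members, the 5 genes most like Actb were Cap1, Cmtm6, Ugp2, Fgr and Rap2c, with r from 0.991 to 0.994 over 16 libraries, among 6960 genes at a mean of 20 CPM or more. Cap1 encodes a protein that recycles actin monomers, and Fgr a kinase of myeloid cells. A close match to Actb was common, since 692 of the 6960 genes had an r of 0.9 or more and 35 had an r of -0.9 or less.

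The level of Actb followed that of genes of late neutrophil stages, which is not shown to be particular to those stages. The list of 14 neutrophil markers, which shares genes with the late list, was not among the relations computed. It summed to 32906 CPM in P2KO replicate 9, 74152 CPM in P2KO replicate 6 and 84034 CPM in P2H2KO replicate 17. The summed level of 10 genes of late granules and mature neutrophils, such as Mmp9, Retnlg and Cxcr2, ran from 3562 CPM in P2KO replicate 9, the library lowest in Actb, to 10064 CPM in P2KO replicate 6, the library highest in Actb. Pearson's r with Actb was 0.959 and Spearman's rho 0.953 (16 libraries, adjusted permutation p = 0.0001 for each over 10 relations, the smallest that the permutations can give). Without the 2 libraries farthest from the median of the list, r was 0.938, and it was 0.962 within the P2 line and 0.947 within the P2H2 line. The erythroid list ran the other way, with r = -0.646 (adjusted permutation p = 0.0225) and rho = -0.544 (adjusted permutation p = 0.105). Without the 2 farthest libraries r was -0.383, so the size of the pooled r depends in part on those libraries. It was -0.874 within the P2 line and -0.778 within the P2H2 line. For the monocyte and macrophage list r was 0.651 (adjusted permutation p = 0.0225) and rho 0.700 (adjusted permutation p = 0.0169). It was 0.665 without the 2 farthest libraries, and 0.488 and 0.741 within the P2 and P2H2 lines. For the other 6 lists (early granule, B cell, T and NK cell, platelet, endothelial and bone stroma) r lay between -0.533 and 0.0738. Some of these moved when libraries were left out or the lines were taken apart. The T and NK cell list had r = -0.481 over all 16 libraries, -0.734 without the 2 farthest, -0.363 in the P2 line and -0.914 in the P2H2 line. The platelet list had r = 0.0738 over all 16, 0.689 without the 2 farthest, 0.107 in the P2 line and 0.431 in the P2H2 line. Over all 16 libraries none of these 6 lists had an adjusted permutation p under 0.05, nor did the total count (r = 0.250, adjusted permutation p = 0.436). No adjusted p was computed within lines or without the 2 farthest libraries. In sorted bulk RNA, more cells of a late stage and more RNA of these genes per cell cannot be told apart. The part of a changing share of neutrophil and erythroid RNA between libraries in these relations was not tested.

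**Figure D4:**
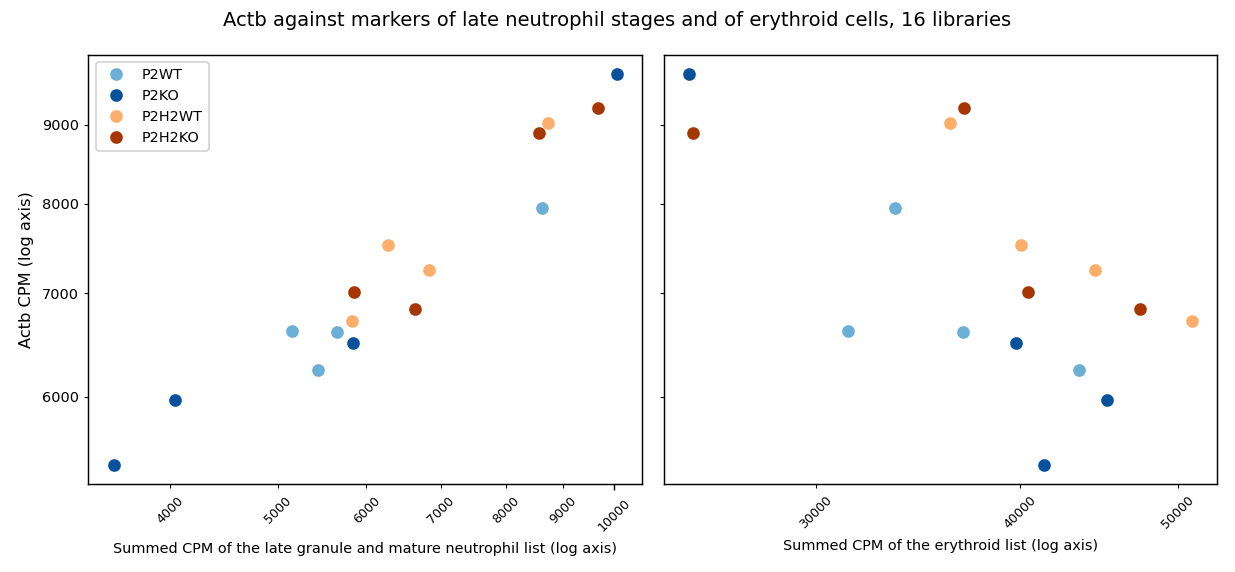
The vertical axis is Actb CPM and the horizontal axes are the summed CPM of the late granule and mature neutrophil list (left) and of the erythroid list (right), all logarithmic, with 1 point per library coloured by group. Libraries of all 4 groups lie along 1 rising band on the left (r = 0.959), and scatter around a falling one on the right (r = -0.646).

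With the late granule level as a covariate, a setting added after these relations had been seen, the intervals narrowed and Gsn was called. Its average effect over both lines was a log2 fold change of 0.29 (SE 0.047, 95% confidence interval 0.19 to 0.39), with an adjusted p of 0.00924 in edgeR, in a fit that called 0.355% of the 14080 genes tested (50 genes). Gsn remained called with each of the 16 libraries left out in turn, with log2 fold changes of 0.26 to 0.31 and adjusted p of 0.00536 to 0.0306. Those fits kept the covariate, so they cannot test its choice. The late granule list had a median of 5535 CPM in P2WT and 4938 CPM in P2KO. In P2H2WT and P2H2KO its median was 6553 and 7597.5 CPM. Whether the list itself followed genotype was not tested, and the effect on Gsn is conditional on it. In the lines taken alone 0 of 10 members were called with this covariate, where 0.124% of genes were in P2 and 0.067% in P2H2. The value of Gsn was then 0.31 in P2 (SE 0.074, adjusted p = 0.553) and 0.26 in P2H2 (SE 0.059, adjusted p = 0.56), neither of which passes. The lines differed by 0.019 (SE 0.097) in that effect, with an adjusted p above 0.99. With the erythroid level as the covariate in place of the late granule level, the average effect on Gsn was 0.21 (SE 0.099, adjusted p = 0.618) and was not called, where 0.362% of genes were. The other 9 members were called in neither fit.

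**Figure D5:**
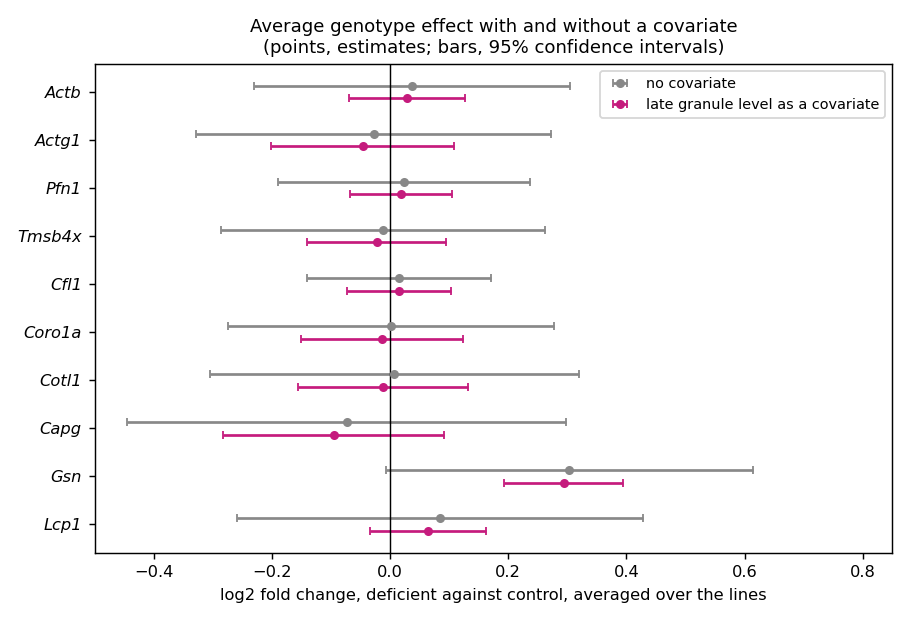
Points are log2 fold changes averaged over the lines, and bars are 95% confidence intervals, without a covariate (grey) and with the late granule level as a covariate (magenta). Gsn lies at 0.30 and 0.29, and with the covariate its interval alone excludes 0.

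Between the lines, all 10 members were lower in the P2 line, in controls and in deficient libraries alike, and none was called. In P2WT against P2H2WT the log2 fold changes ran from -0.12 (Cfl1, SE 0.089) to -0.25 (Cotl1, SE 0.14), with adjusted p of 0.496 or more in edgeR, where 1.22% of 13593 genes tested were called. In P2KO against P2H2KO they ran from -0.21 (Cfl1, SE 0.13) to -0.46 (Capg, SE 0.28), with 0 of 10 called, where 0.279% of 13610 genes were. With the late granule level as a covariate their median there moved from -0.32 to -0.057, and Actb (0.015) and Lcp1 (0.017) turned sign. No member was without overlap in either comparison. Without overlap, 5.18% of genes were higher and 2.63% lower in P2WT, and 4.34% were higher and 2.59% lower in P2KO. With the erythroid level as a covariate, 6 members (Actg1, Pfn1, Tmsb4x, Coro1a, Cotl1 and Capg) were called lower in P2WT. That fit called 5.45% of the 13593 genes, 451 higher and 290 lower. With the late granule level 0 members were called, where 1.12% of genes were. The tables were deposited per line, so line, table and any batch cannot be told apart. Library titles end in m or f, whose meaning the labels do not give and which is unevenly spread: P2KO and P2H2WT hold 1 library ending in f, while P2WT and P2H2KO hold 2. In a fit with group, all 10 members were higher in f, by 0.071 (Actb, SE 0.14) to 0.27 (Capg, SE 0.19), with 0 of 10 called where 0.163% of genes were. Tmsb4x, on the X chromosome, was at 0.13 (SE 0.14).

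The wider actin machinery was described with a list of 59 further genes, of which 58 are in the tables. None was called in the main fit of any of the 7 comparisons. With the erythroid level as a covariate, 8 of 51 were called lower in P2WT against P2H2WT (Wdr1, Capza1, Capza2, Capzb, Twf2, Tpm3, Msn and Gmfg). That fit called 5.45% of genes, 451 higher and 290 lower, and 6 members. In P2KO against P2WT, 51 were tested, with a median log2 fold change of 0.0044 against 0.020 over all genes, and 1 was higher and 1 lower at an unadjusted p under 0.05. Among the 43 genes at a mean of 5 CPM or more, the lowest were Limk1, whose kinase inactivates cofilin (-0.24, SE 0.10), Tmsb10, a thymosin (-0.22, SE 0.12), and Tesk1, a cofilin kinase too (-0.18, SE 0.087). The highest were Tpm1, a tropomyosin (0.18, SE 0.11), Tmod1, a pointed-end cap of red cells (0.17, SE 0.19), and Ssh1, a cofilin phosphatase (0.16, SE 0.10). In P2H2KO against P2H2WT, 51 were tested, with a median of 0.042 against 0.0011 over all genes, and 1 was higher and 0 lower at an unadjusted p under 0.05. The lowest there were Tpm1 (-0.21, SE 0.12), Tmod1 (-0.17, SE 0.21) and Limk1 (-0.15, SE 0.20). Among the highest were Acta2, the smooth muscle actin (0.34, SE 0.16), and Mrtfa, a coactivator of serum response factor (0.13, SE 0.15). In the average over both lines 0 of 52 were called, the smallest adjusted p being 0.489. The filamin Flna was at 2060 to 4204 CPM, and Srf itself at 61.3 to 80.5 CPM.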

How the data were processed

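The authors deposited raw read counts per Ensembl gene, 1 table per line with 8 libraries each, per the file headers. HTSeq and mm10 are named in the submitters' processing notes, without version or role. The aligner, annotation release and strand setting are not given in the sources used here. Values were whole numbers summing to 23450746 to 28601284 per library, which makes counting error small beside the spread between libraries. GENCODE M21 symbols matched 49326 of 49585 identifiers, and the 259 others held 0.00714% of counts. The members and gene lists were chosen with earlier results of these data known.

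Tests used edgeR 4.0.16 (filterByExpr, TMM scaling, glmQLFit with robust estimation, glmQLFTest) in R 4.3.3, with Benjamini-Hochberg adjustment over all genes tested and a threshold of 0.05. Each comparison within or between lines used its own 8 libraries, and the difference, average and suffix contrasts used all 16. CPM values come from the fit of 16 libraries. Standard errors come from the F statistic. The Actg1 to Actb ratio was tested with exact two-sided permutations. Correlations between genes used log2(CPM + 0.5). Those of Actb with the marker lists and the total count used log2 values without that offset, with 100000 permutations for 16 libraries. Copies were searched with blastn 2.17.0. The main edgeR fits, without covariates, were run on simulated counts first. The simulation did not cover the suffix contrast, the covariate fits or the permutation tests.

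All 10 members are named. Of the list, the rule names called genes and, within each line, the 3 highest and 3 lowest changes at a mean of 5 CPM or more, and 1 gene that it names is not reported here. Alternatives were DESeq2 1.42.0, RLE and upper-quartile factors, TMM without the 10 members, no filter or a minimum of 10 counts per library, the suffix as a covariate, a fit of all 16 libraries, added pseudogene counts and each library left out. The 2 covariates of cell content, the test of the ratio between lines and the leave-one-out fits with a covariate were added after the data had been seen.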

Additional observations from a re-analysis of the deposited data

Results flagged for a closer look

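In each group of 4 libraries, a value was looked at again when its gap to the nearest other library, divided by the range of the group, was above 0.829. Of 44 groups examined, 2 met this, where chance gives about 1 in 20. The first was Gsn in P2WT replicate 10, at 470.54 CPM against 319 to 335 CPM in the other 3 libraries, with a ratio of 0.893. That library was also the highest of its group in Actb (7951 CPM), in the late granule list (8616.5 CPM against 5144 to 5645.3 CPM) and in the platelet list (214.49 CPM against 102.49 to 144.28 CPM). The part of these in the Gsn value was not tested. The second was the log2 ratio of Actg1 to Actb in P2KO replicate 5, at -4.5031, or 4.41% of Actb counts against 4.94% to 4.99% in the other 3 libraries, with a ratio of 0.921. Without that library the P2KO to P2WT difference of the mean log2 ratio was -0.12 in place of -0.17.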

How the results depend on the processing

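Members were called in 2 of the settings run, both added after the data had been seen: Gsn in the average effect with the late granule covariate, and 6 members in P2WT against P2H2WT with the erythroid covariate. In the other comparisons and settings 0 of 10 were called. The signs of log2 fold changes near 0 were less steady, and for each turn the cause was not tested. The suffix covariate turned the sign of Actb (-0.0044) and Lcp1 (-0.0048) in P2KO against P2WT. It did so for Actg1 (-0.030), Pfn1 (-0.024), Tmsb4x (-0.049), Cfl1 (-0.0061), Coro1a (-0.053), Cotl1 (-0.054) and Capg (-0.15) in P2H2KO against P2H2WT. The same held in the difference of the effects for Pfn1 (0.017). The late granule covariate turned the sign of Cfl1 (0.033), Coro1a (0.0076) and Cotl1 (0.0024) in P2KO against P2WT. It did so for Actb (-0.026), Actg1 (-0.037), Pfn1 (-0.044), Tmsb4x (-0.074), Cfl1 (-0.011), Coro1a (-0.060), Cotl1 (-0.065) and Capg (-0.16) in P2H2KO against P2H2WT. The same held in the difference of the effects for Actb (0.086), Pfn1 (0.086), Tmsb4x (0.024), Cfl1 (0.021), Coro1a (0.034), Cotl1 (0.027), Gsn (0.019) and Lcp1 (0.046). In the average effect it did so for Coro1a (-0.014) and Cotl1 (-0.012). P2KO against P2H2KO had such turns for Actb (0.015) and Lcp1 (0.017). The erythroid covariate turned the sign of Cfl1 (0.0032) and Lcp1 (-0.0029) in P2KO against P2WT. It did so for Actb (-0.043), Actg1 (-0.071), Pfn1 (-0.044), Tmsb4x (-0.076), Cfl1 (-0.028), Coro1a (-0.10), Cotl1 (-0.096) and Capg (-0.20) in P2H2KO against P2H2WT. The same held in the difference of the effects for Actb (0.080), Pfn1 (0.074), Tmsb4x (0.0078), Cfl1 (0.027), Coro1a (0.062), Cotl1 (0.037) and Lcp1 (0.020). In the average effect it did so for Actb (-0.038), Pfn1 (-0.033), Cfl1 (-0.022), Coro1a (-0.089), Cotl1 (-0.093) and Lcp1 (-0.025). Upper-quartile factors turned the sign of Coro1a (-0.0023) in the average effect. Leaving out the filter turned the sign of Coro1a (-0.0071) and Cotl1 (-0.00082) in the average effect. A minimum of 10 counts in every library turned the sign of Coro1a (-0.0030) in the average effect.

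Counts over all genes moved by more than 1.5 times in these cases. For P2KO against P2WT (6 genes in the main analysis), genes called numbered 23 with DESeq2, 10 with the fit of all 16 libraries, 17 with the late granule covariate and 11 with the erythroid covariate. For P2H2KO against P2H2WT (10), genes called numbered 42 with DESeq2. For the average effect (24), genes called numbered 65 with DESeq2, 50 with the late granule covariate and 51 with the erythroid covariate. For the average effect, members called numbered 1 with the late granule covariate. For P2WT against P2H2WT (166), genes called numbered 87 with at least 10 counts in every library, 419 with DESeq2, 32 with the fit of all 16 libraries and 741 with the erythroid covariate. For P2WT against P2H2WT, members called numbered 6 with the erythroid covariate. For P2KO against P2H2KO (38), genes called numbered 63 without the filter, 12 with at least 10 counts in every library, 255 with DESeq2, 150 with the suffix covariate, 130 with the fit of all 16 libraries and 58 with the erythroid covariate. For f against m (23), genes called numbered 37 with TMM without the 10 members, 58 without the filter, 9 with at least 10 counts in every library and 435 with DESeq2. With each library left out in turn, genes called numbered 6 to 9 for P2H2KO against P2H2WT (6 without P2H2WT replicate 13), 15 to 30 for the average effect (15 without P2WT replicate 4), 76 to 167 for P2WT against P2H2WT (76 without P2WT replicate 10), 11 to 26 for P2KO against P2H2KO (11 without P2H2KO replicate 17) and 17 to 1066 for f against m (1066 without P2KO replicate 9). The difference of mean log2 ratio of Actg1 to Actb ran from -0.20 to -0.11 in P2KO against P2WT, from -0.025 to 0.076 in P2H2KO against P2H2WT and from -0.029 to 0.079 in P2WT against P2H2WT, and with 3 libraries in a group its smallest possible p is 0.0571. Log2 fold changes of members that turned sign with a library left out had the following ranges. In P2KO against P2WT they were -0.19 to 0.12 for Actb, -0.13 to 0.086 for Pfn1, -0.25 to 0.027 for Tmsb4x, -0.089 to 0.045 for Cfl1, -0.25 to 0.046 for Coro1a, -0.28 to 0.051 for Cotl1, -0.019 to 0.38 for Gsn and -0.29 to 0.16 for Lcp1. In P2H2KO against P2H2WT they were -0.0069 to 0.15 for Actb, -0.0040 to 0.20 for Actg1, -0.040 to 0.11 for Pfn1, -0.055 to 0.15 for Tmsb4x, -0.0071 to 0.089 for Cfl1, -0.029 to 0.16 for Coro1a, -0.023 to 0.19 for Cotl1 and -0.090 to 0.18 for Capg. In the difference of the effects they were -0.27 to 0.041 for Actb and -0.19 to 0.033 for Pfn1. In the average effect they were -0.067 to 0.094 for Actb, -0.14 to 0.028 for Actg1, -0.051 to 0.066 for Pfn1, -0.10 to 0.045 for Tmsb4x, -0.028 to 0.041 for Cfl1, -0.10 to 0.055 for Coro1a, -0.11 to 0.070 for Cotl1, -0.19 to 0.00034 for Capg and -0.072 to 0.15 for Lcp1. No paired analysis was possible because the groups share no replicate number. Depth was no limit for these genes, whose lowest count in a library was 3358, while 4 libraries per group limit the precision.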
